A study of Drosophila melanogaster with 10 samples.

Results

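Irbp, Ku80, DNAlig4, mre11, rad50 and nbs are the fly genes for the Ku heterodimer, DNA ligase 4 and the Mre11 complex, which bind, process and join broken DNA ends. They were taken as the probe sets that the platform annotation assigns to each of these names. The rule reads names and no signal, but the 6 names were chosen with earlier results of these data known. Each of the 6 genes had exactly 1 probe set, among 10844 genes named on the array, and all 6 passed the filter on dim probe sets that left 6848 genes to test. The probe sets are 143279_at (Irbp), 144257_at (Ku80), 145021_at (DNAlig4), 153629_at (mre11), 141630_at (rad50) and 155067_at (nbs). The stretch of transcript that each reads is not known here.

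When both strands of DNA break, the ring-shaped Ku heterodimer slides onto the ends, holds them and brings in DNA ligase 4, which seals them without a template. The Mre11 complex, made of the nuclease Mre11, the ATPase Rad50 and the adaptor Nbs, tethers ends, starts to trim them for homologous recombination and activates the ATM kinase. In flies the same complex also protects telomeres. Fly p53 is a transcription factor that is activated through the checkpoint kinase Chk2 after ionizing radiation.

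RNA of whole Drosophila melanogaster embryos was hybridized to single-colour Affymetrix DrosGenome1 arrays, 1 array for each of 10 embryo collections. Embryos laid over 2.5 h were aged for 2.5 h more, given 40 Gy of gamma rays or mock treated, and left to recover for 1.5 h. Wild-type (WT) embryos came from 2 strains, yw (1 set of a mock-treated and an irradiated array) and w1118 (2 sets). Mutant embryos were of the Dmp53NS strain (2 sets), for which the labels do not describe the p53 lesion. There were 3 arrays in each WT group and 2 in each mutant group. The values are MAS5 signal in arbitrary units, which average over all cells of an embryo, so that fewer cells with a transcript and less of it per cell cannot be told apart. The yw set was hybridized on day 1, and days 2 and 3 each held 1 w1118 set and the mutant set of the same number. Each day had its own chip lot, and yw its own fluidics protocol, so that day and lot cannot be told apart. The eIF-4a control probes, whose 3′ over 5′ signal reports on RNA quality, stood apart on 2 arrays. The ratio was 12.2 for w1118 set 2 after irradiation and 5.92 for mutant set 2 without it, against 1.56 to 3.13 on the others. The Actin control was highest on the same 2 arrays, at 4.88 and 3.52, against 1.30 to 2.31 on the others. The GAPDH control was highest on another array, at 3.20 for mutant set 1 after irradiation, against 0.902 to 2.27 on the others. The embryo label was checked on 6 measured genes of segmentation and gastrulation (eve, ftz, hry, en, twi and sna), whose summed signal was 3732 to 5336 on WT and 2107 to 3227 on mutant arrays. The brightest of them was sna, at -0.81 log2 in unirradiated mutant against WT embryos. The 6 ran from -1.08 (eve) to -0.25 (en) there, and none passed. The summed signal of 5 measured maternal transcripts was 692 to 892 on WT and 1371 to 2353 on mutant arrays. Most of that difference came from bcd, which was 3.36 log2 higher in unirradiated mutant embryos (limma adjusted p = 0.0182). Of the others osk (1.19) and grk (0.62) were also above 0, while gcl (-0.36) and pgc (-0.24) were below it. None but bcd passed.

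In WT embryos the signal of 5 of the 6 genes, all but DNAlig4, was higher on every irradiated array than on every mock-treated one, as for 2.88% of all probe sets, with fitted changes of 0.53 to 1.42 log2 over the 6. None passed the test over all probe sets, where 20 of 8379 (0.239%) did, and rad50 came nearest, at 2.35-fold. In mutant embryos only Irbp was higher after irradiation in both sets, as were 19.0% of all probe sets. On irradiated arrays mre11 was lower in the mutant than in WT embryos (-1.43 log2). This passed, as did 2.85% of all probe sets, in a comparison chosen after the values were seen. The mre11 call was lost whichever of the 5 sets was left out.

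**Figure D1:**
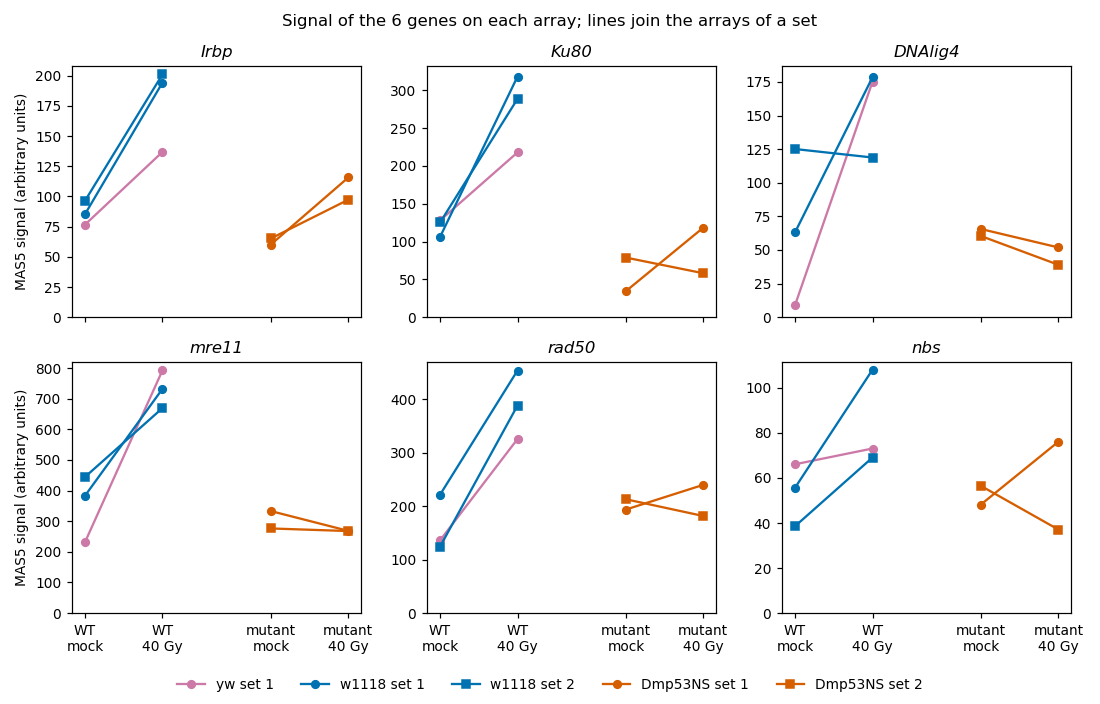
MAS5 signal (arbitrary units, linear axis from 0) of each gene on all 10 arrays, with a line joining the mock-treated and irradiated array of a set. Lines climb in WT sets except for DNAlig4 in the second w1118 set (125.1 to 118.8), while in mutant sets only Irbp climbs in both.

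The Ku genes come first. Irbp, which encodes the Ku70 subunit, gave a signal of 76.7 (yw), 85.4 and 96.5 (w1118) in mock-treated WT embryos and of 136.9, 194.3 and 201.1 in irradiated ones. Mutant arrays read 60.2 and 65.2 without irradiation and 115.7 and 97.3 after it. The irradiated arrays lay above the mock-treated ones in both genotypes without overlap, and the mutant was the lower of the genotypes in each treatment. Group means ran from 177 ± 35.3 (irradiated WT, SD, n = 3) through 106.5 ± 13.01 (irradiated mutant, n = 2) and 86.2 ± 9.92 (mock WT, n = 3) to 62.7 ± 3.54 (mock mutant, n = 2). The middle 2 groups were apart by less than 1 unit at their nearest arrays, 97.3 and 96.5.

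Ku80, the partner subunit, gave 127.9 (yw), 106.2 and 125.2 (w1118) in mock-treated and 217.8, 318 and 288.5 in irradiated WT embryos. In the mutant its signal went from 34.4 to 118.4 in the first set and from 78.8 to 58.1 in the second. WT arrays were thus separated by treatment, while the 2 mutant sets ran in opposite directions. Mean signal was 275 ± 51.5 in irradiated WT, 120 ± 11.8 in mock WT, 88.3 ± 42.6 in irradiated mutant and 56.6 ± 31.4 in mock mutant embryos, of which only the first stood clear of the group next to it. The second mutant set holds the mock-treated array with the raised eIF-4a 3′ to 5′ ratio of 5.92. The first holds the irradiated array with the highest GAPDH ratio, 3.20. The part of RNA quality in these opposite changes was not tested.

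DNAlig4, the ligase that seals ends held by Ku, was the most uneven of the 6. Its signal was 9.10 (yw), 63.2 and 125.1 (w1118) on mock-treated WT arrays and 175.2, 178.5 and 118.8 on irradiated ones, so that the WT groups overlapped. Mutant arrays read 65.6 and 60.4 without irradiation and 51.9 and 39.0 after it, lower in both sets. The yw value of 9.10 lies below 14.6, the level under which 20% of all values fall and where MAS5 signal is noisy. The change within sets was 3.00 log2 in yw, 1.31 and -0.07 in the w1118 sets, and -0.27 and -0.48 in the mutant sets. The w1118 set at -0.07 log2 is the one whose irradiated array has the 3′ to 5′ ratio of 12.2, and the part of RNA quality in it was not tested. All 3 irradiated WT arrays (158 ± 33.6, n = 3) lay above the irradiated mutant arrays (45.5 ± 9.12, n = 2), and the 2 mock-treated groups (65.8 ± 58.0 in WT and 63.0 ± 3.68 in the mutant) overlapped.

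The Mre11 complex follows with mre11, the nuclease subunit and the brightest of its probe sets. Its signal was 232 (yw), 383.3 and 444.5 (w1118) on mock-treated WT arrays and 792.5, 732 and 669.2 on irradiated ones. Mutant arrays read 332.9 and 276.2 before and 268.3 and 267.7 after the dose. WT embryos were separated by treatment, all 3 irradiated WT arrays lay above every other array, and the mutant was slightly lower after irradiation in both sets. Mean signal was 731 ± 61.7 in irradiated WT, 353 ± 109 in mock WT, 305 ± 40.1 in mock mutant and 268 ± 0.424 in irradiated mutant embryos. Mock WT and mock mutant arrays overlapped, and the irradiated mutant arrays also lay within the range of the mock WT ones.

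rad50, the ATPase subunit that bridges ends, gave 136.1 (yw), 221.5 and 124.4 (w1118) in mock-treated and 325.6, 453.8 and 388.3 in irradiated WT embryos. The mutant arrays read 193.7 and 212.9 before and 239.9 and 181.6 after the dose. Irradiated WT arrays stood above all others, at 389 ± 64.1, and the other 3 groups overlapped each other (211 ± 41.2 in irradiated mutant, 203 ± 13.6 in mock mutant and 161 ± 53.01 in mock WT embryos). Its change was 1.17, 0.99 and 1.54 log2 in the WT sets, the most even of the 4 genes with WT changes above 1, and 0.29 and -0.21 log2 in the mutant sets.

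nbs, the adaptor that links the complex to ATM, was the dimmest of the 6 probe sets and had the smallest WT change. Its signal was 66.1 (yw), 55.7 and 38.6 (w1118) on mock-treated and 73.1, 108.1 and 69.1 on irradiated WT arrays, which did not overlap, by 3 units at the nearest arrays. It was 48.2 and 56.5 on mock-treated and 76.1 and 37.1 on irradiated mutant arrays. Means were 83.4 ± 21.5 in irradiated WT, 56.6 ± 27.6 in irradiated mutant, 53.5 ± 13.9 in mock WT and 52.4 ± 5.87 in mock mutant embryos, and irradiated WT and irradiated mutant arrays overlapped.

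The comparison of irradiated with mock-treated WT embryos asked whether these genes respond in the WT strains. Limma called 0 of the 6 genes, where it called 20 of 8379 probe sets (0.239%) over the whole array; at an unadjusted p under 0.05 it counted 5 of the 6, all but nbs, against 8.15% of all probe sets. For rad50 the change was 1.23 log2 (SE 0.28, 95% interval 0.66 to 1.81, limma adjusted p = 0.0704), and for mre11 it was 1.06 log2 (SE 0.26, 0.52 to 1.61, adjusted p = 0.129). The changes of Ku80 (1.09 log2, SE 0.36, adjusted p = 0.349) and Irbp (0.92 log2, SE 0.33, adjusted p = 0.415) were of like size, and those of DNAlig4 (1.42 log2, SE 0.46, adjusted p = 0.331) and nbs (0.53 log2, SE 0.40, adjusted p = 0.811) had the widest errors.

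Counted by the order of the arrays, 5 of the 6 genes were higher after irradiation in all 3 WT sets, as were 15.4% of all probe sets. The same 5 were higher on every irradiated than on every mock-treated WT array, as were 2.88% of all probe sets. The median change of the 6 was 1.08 log2, beside -0.01 for all probe sets. Within sets, each on its own hybridization day, their median was 0.95 log2 (yw), 1.03 and 0.81 (w1118).

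Which sets were used moved the single values. DNAlig4 had a WT change of 0.62 log2 when yw was left out and 2.16 when w1118 set 2 was, and mre11 one of 0.74 without the yw set, while rad50 stayed between 1.08 and 1.36 over the sets left out in turn. Both rad50 (adjusted p = 0.0285) and mre11 (adjusted p = 0.0467) passed when only brighter probe sets, with a mean signal above 142.51, were tested, which lowers the number of tests; both had the same changes as above.

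**Figure D2:**
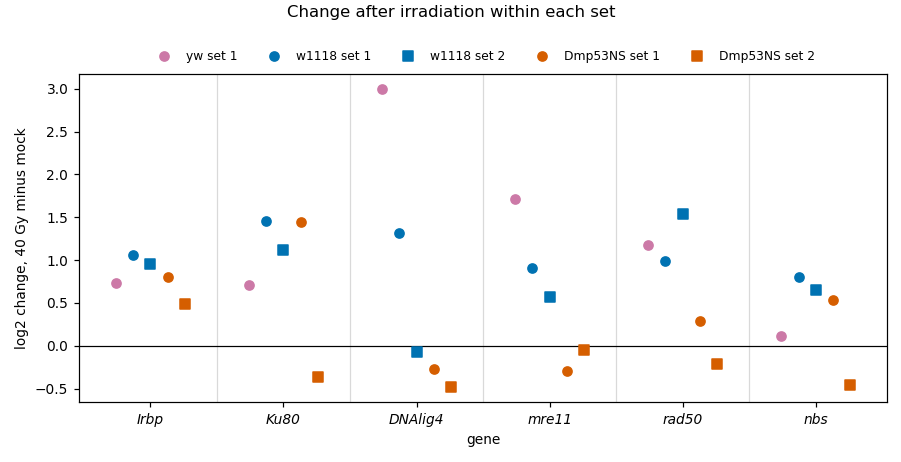
Change of each gene after irradiation in each of the 5 sets, as the difference of log2(signal + 14.6) between the irradiated and the mock-treated array; circles are first sets and squares second sets. WT points lie above 0 except DNAlig4 in the second w1118 set (-0.07), and DNAlig4, mre11 and rad50 have all 3 WT points above both mutant points.

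The comparison of irradiated with mock-treated mutant embryos asked whether the genes respond in the Dmp53NS strain, whose p53 lesion the labels do not describe. Limma called 0 of the 6, and 0 of 8379 probe sets (0%); at an unadjusted p under 0.05 it counted 0 of the 6 and 1.60% of all probe sets. Irbp had the highest fitted change, 0.64 log2 (SE 0.41, 95% interval -0.20 to 1.49), and it was higher in both mutant sets, by 0.80 and 0.49 log2, as were 19.0% of all probe sets. It was also the 1 gene whose irradiated mutant arrays both lay above the mock-treated ones, as in 9.18% of all probe sets. The fitted change was 0.54 log2 for Ku80 (-0.38 to 1.46), 0.04 for rad50 (-0.67 to 0.74) and 0.04 for nbs (-0.99 to 1.06). It was -0.17 for mre11 (-0.84 to 0.50) and -0.38 for DNAlig4 (-1.54 to 0.79). The intervals of Irbp, Ku80 and nbs thus hold changes as large as those fitted in WT embryos, and those of mre11, rad50 and DNAlig4 end below the fitted WT change.

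The 2 mutant sets differed from each other. The median change of the 6 genes was 0.41 log2 in the first set, on day 2, with 4 of the 6 higher, and -0.29 in the second, on day 3, with 1 of the 6 higher. Over all probe sets the medians of those sets were 0.12 and -0.05 log2, with 59.1% and 45.6% of probe sets higher. Ku80 and nbs carried the widest gaps, at 1.44 against -0.36 and 0.53 against -0.46 log2.

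The irradiation effect of WT embryos was then set against that of mutant embryos, to ask which responses differ between the WT and Dmp53NS strains. All 6 differences, WT minus mutant, were above 0, as were 45.9% of all probe sets. Their median was 0.87 log2, beside -0.05 for all probe sets. That median was 0.53 log2 without the second mutant set and 1.28 without the first. The 3 sets without a high eIF-4a ratio keep mutant set 1, whose irradiated array had the highest GAPDH ratio, 3.20. On them, an alternative chosen after seeing the data, the median difference was 0.44 log2. None passed: limma called 0 of the 6 and 1 of 8379 probe sets (0.0119%), and counted 3 of the 6 at an unadjusted p under 0.05 against 3.37% of all. These differences rest on the same WT and mutant arrays as the comparisons above and are not separate evidence.

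The differences were wide for 3 genes and narrow for the other 3, which include both Ku subunits. DNAlig4 differed by 1.79 log2 (SE 0.72, 95% interval 0.29 to 3.30), mre11 by 1.23 (SE 0.41, 0.38 to 2.09) and rad50 by 1.20 (SE 0.44, 0.28 to 2.11), each with a limma adjusted p of 1.00. The DNAlig4 difference was 1.00 log2 when yw was left out and 2.53 when w1118 set 2 was. For these 3 genes all 3 WT set changes lay above both mutant ones, as for 7.21% of all probe sets. Ku80 differed by 0.55 log2 (-0.63 to 1.74), nbs by 0.49 (-0.83 to 1.82) and Irbp by 0.27 (-0.82 to 1.37), so that neither an equal response nor one more than 1 log2 apart falls outside their intervals.

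Within days, where w1118 and mutant arrays were hybridized together, the w1118 change exceeded the mutant change for each of the 6 genes on both days. The share of all probe sets for which this held was not counted. The excess on days 2 and 3 was 0.26 and 0.47 log2 for Irbp, 0.02 and 1.48 for Ku80 and 1.58 and 0.42 for DNAlig4. It was 1.20 and 0.62 log2 for mre11, 0.70 and 1.75 for rad50 and 0.27 and 1.11 for nbs. Irbp and mre11 kept the closest values over the days, and Ku80 was nearly equal in w1118 and mutant embryos on day 2 (1.46 and 1.44 log2). Without the second mutant set the fitted difference of Ku80 was -0.35 and that of nbs was 0.00 log2.

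**Figure D3:**
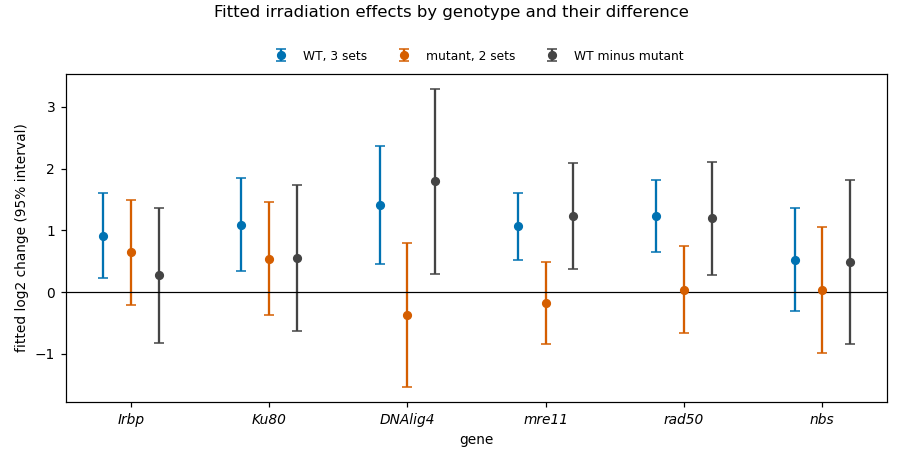
Fitted irradiation effect of each gene in WT embryos (3 sets), in mutant embryos (2 sets) and their difference, in log2 units with 95% intervals from limma. WT intervals lie above 0 except for nbs, all mutant intervals hold 0, and the intervals of the difference lie above 0 for DNAlig4, mre11 and rad50 before any adjustment for multiple tests.

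Levels in unirradiated embryos were compared to ask whether the genes differ by genotype without damage. In fitted level differences, here and for irradiated embryos, WT is the mean of the yw and w1118 levels. The yw set thus weighs as much as both w1118 sets together, and it shares no hybridization day with the mutant. Limma called 0 of the 6 genes, where it called 325 of 8379 probe sets (3.88%), and counted 0 of the 6 at an unadjusted p under 0.05 against 26.3% of all. Ku80 had the widest difference, mutant minus WT, at -1.01 log2 (SE 0.45, 95% interval -2.03 to 0.01, adjusted p = 0.193), and within days it was -1.30 and -0.58 log2 against w1118. Irbp differed by -0.42 and -0.48 log2 within days (fitted -0.34, SE 0.33, adjusted p = 0.513). Irbp and Ku80 were the 2 genes with both mock-treated mutant arrays below all mock-treated WT arrays, as were 20.8% of all probe sets.

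The other 4 genes had smaller or unstable differences before irradiation. These were 0.64 log2 for DNAlig4, 0.40 for rad50, -0.03 for mre11 and -0.07 for nbs, with adjusted p-values of 0.360 to 0.952. The value for DNAlig4 rests on the dim yw array and was -0.43 log2 against w1118 alone.

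In irradiated embryos all 6 genes were lower in the mutant than in WT embryos, where 42.7% of all probe sets were higher. Of the 6, mre11 passed the test, which was chosen after these values were seen. mre11 differed by -1.43 log2 (0.372 of the WT level; SE 0.29, 95% interval -2.07 to -0.79, limma adjusted p = 0.0392). The call was lost whichever of the 5 sets was left out, with adjusted p-values of 0.0599 to 0.328, and the difference stayed between -1.46 and -1.34 log2. DNAlig4 (-1.55 log2, adjusted p = 0.0903), Ku80 (-1.47, adjusted p = 0.109), rad50 (-0.78, adjusted p = 0.226), Irbp (-0.57, adjusted p = 0.341) and nbs (-0.46, adjusted p = 0.558) did not pass. Over the whole array limma called 239 of 8379 probe sets (2.85%), and the median of the 6 genes was -1.10 log2 beside -0.13 for all probe sets.

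The same order held array by array. For 5 of the 6 genes, all but nbs, every irradiated WT array lay above both irradiated mutant arrays, as for 18.1% of all probe sets. Within days the mutant was lower than w1118 for all 6 genes on both days, at -1.40 and -1.28 log2 for mre11, -1.54 and -1.32 for DNAlig4, -1.32 and -2.06 for Ku80 and -0.88 and -1.04 for rad50. For Irbp it differed by -0.68 and -0.95 log2 and for nbs by -0.44 and -0.70. How many of all probe sets were lower on both days was not counted. In a fit of w1118 and mutant arrays with day as a block, which treats the arrays of a set as independent, mre11 (-1.34 log2, adjusted p = 0.00444), Ku80 (-1.69, adjusted p = 0.00942) and DNAlig4 (-1.43, adjusted p = 0.0272) passed, among 1048 probe sets called by that fit. The segmentation marker sums and bcd, given above, also differed between genotypes in these libraries, and their part in these level differences was not tested.

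The 2 WT strains were compared because yw makes up 1 of the 3 WT sets. Limma called 0 of the 6 genes between yw and w1118, beside 229 of 8379 probe sets (2.73%), and 0 of the 6 had an unadjusted p under 0.05 against 23.9% of all. DNAlig4 had the widest difference, -0.95 log2 (SE 0.46, adjusted p = 0.242), which comes from the yw array at 9.10, since the irradiated yw array read 175.2. The others lay between -0.35 (Irbp) and 0.10 log2 (nbs). Strain and hybridization day cannot be told apart here.

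Related genes of break repair were taken from 4 lists to place these values, and in mutant embryos their list medians lay between -0.11 and 0.02 log2. Of 7 measured genes of other end joining steps 0 passed in WT embryos, with a median change of 0.20 log2. Of these, 7 of 7 were above 0, the lowest by 0.002 log2, as were 48.7% of all probe sets. CG3448, a gene listed with them that has no name in the annotation used here, had the largest change, 1.47 log2 (SE 0.40, adjusted p = 0.207). Its signal was 60.4 (yw), 46.3 and 11.8 (w1118) in mock-treated and 121.3, 115.9 and 128.8 in irradiated WT embryos, which did not overlap. The changes within these sets were 0.86, 1.10 and 2.44 log2. The last rests on the value of 11.8, which lies below 14.6, where MAS5 signal is noisy. Its irradiated array is the one with the eIF-4a ratio of 12.2, and the part of RNA quality was not tested. In the mutant CG3448 went from 71.4 to 45.7 and from 94.3 to 73.2, lower in both sets (difference between genotypes 1.88 log2, SE 0.64, adjusted p = 1.00). PolQ, the polymerase of template-assisted end joining, was next at 0.45 log2 (SE 0.32, adjusted p = 0.781).

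The genes that follow end binding in the recombination pathway had smaller values. Of 12 measured genes of resection and homologous recombination 0 passed in WT embryos, with a median of 0.02 log2. Of these, 6 were above 0, as were 48.7% of all probe sets. Gen, a nuclease that cuts recombination intermediates (-0.80 log2, SE 0.43, adjusted p = 0.660), and tos, the fly Exo1 exonuclease of resection (0.46 log2), had the largest changes. RecQ4, a RecQ family helicase gene, was lower in yw than in w1118 embryos (-1.84 log2, adjusted p = 0.0445; its second probe set -2.58, adjusted p = 0.0229), and no other gene of the 4 lists passed in any of the 6 comparisons. Of 10 measured break signalling genes 0 passed, with a median of 0.14 log2; p53 itself (0.64 log2, SE 0.29, adjusted p = 0.590) and mu2, which encodes a damage-site adaptor (0.63 log2, SE 0.27, adjusted p = 0.565), had the largest changes. Of 5 measured telomere protection genes 0 passed, with a median of 0.15 log2; cav, a capping protein gene, was at 0.53 and the gene for the heterochromatin protein HP1 at -0.47 log2.

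For scale, the 4 strongly induced genes skl, egr, Corp and RnrL changed by 1.13 to 3.13 log2 in WT embryos, with a median of 1.84. All 4 passed, where 0.239% of all probe sets did, but they were picked for being induced, so this is no separate result. The median of the 6 end-binding, processing and ligation genes, 1.08 log2, lay just below RnrL, the lowest of those 4. Singly, DNAlig4 (1.42 log2) and rad50 (1.23) lay above RnrL (1.13), and the rest of the 6 below it. In the mutant skl, egr, Corp and RnrL had a median of 0.11 log2, beside 0.04 for the 6.

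**Figure D4:**
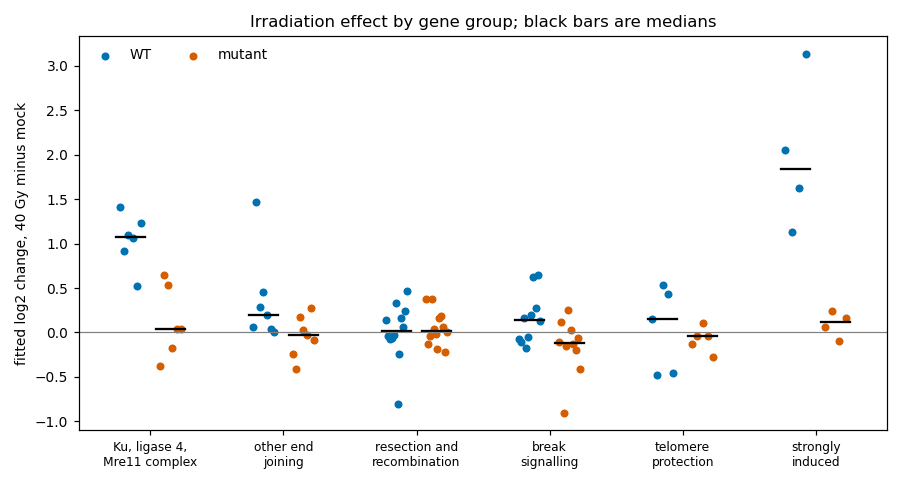
Fitted log2 change after irradiation of each measured gene, by group, in WT and mutant embryos; black bars are medians. The Ku, ligase 4 and Mre11 complex genes have a WT median of 1.08 log2, against 0.02 to 0.20 for the 4 lists of related repair genes. The WT median is 1.84 for the strongly induced genes skl, egr, Corp and RnrL, which were picked for being induced.

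The 6 genes varied together over the 10 arrays, as a description only, since the arrays share strain, day and treatment. Pearson's r between pairs of them ran from 0.31 (DNAlig4 with nbs) to 0.89 (DNAlig4 with mre11), and the Ku partners Irbp and Ku80 had an r of 0.88. Against the mean of the other 5 genes r was 0.87 for Irbp, 0.85 for mre11, 0.84 for Ku80 and rad50, 0.68 for DNAlig4 and 0.65 for nbs. The 5 other genes most like the mean of the 6 over the 10 arrays were Unc-76 (r = 0.97), CG18596 (0.95), Corp (0.95), CG7457 (0.94) and be (0.92).

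Since the 5 were picked for this likeness, their pattern over these arrays is a description. Corp (2.06 log2, adjusted p = 4.88e-05) and CG18596 (1.40 log2, adjusted p = 0.0210) rose in WT embryos. Unc-76, which encodes an adaptor of axonal transport, went from 129.4, 164.3 and 153.5 to 217.8, 292.3 and 240.6 (0.69 log2, adjusted p = 0.531) and did not pass. In the mutant its signal went from 131.8 to 177.8 and from 174.3 to 147.5, opposite in the 2 sets as for Ku80, rad50 and nbs. Corp (0.37 and -0.25 log2), CG18596 (0.73 and -0.43), CG7457 (0.09 and -0.09) and be (0.40 and -0.87) were likewise opposite in the 2 mutant sets.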

How the data were processed

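The deposited values are signal intensity per probe set on 10 Affymetrix DrosGenome1 arrays, which the authors computed with MAS5, as the submitters' processing notes name it without a version. Detection calls were not used here. Every array had a mean of 250.04 after trimming 2% at each end, so the authors had scaled them. Hybridization day, chip lot and fluidics protocol were read from the arrays' run records. Gene names came from the platform annotation and a RefSeq table of the Release 6 assembly (12393 of 12442 probe sets with 1 symbol matched, 0 symbols changed).

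Of 14010 probe sets, 44 controls were left out and the 8379 with a mean above 53.36 (the 40th percentile) were tested on the scale log2(signal + 14.6), with a pseudocount of 14.6 (the values' 20th percentile). All fold changes are on that scale, which understates changes of dim genes. limma 3.58.1 in R 4.3.3 (lmFit, eBayes with a trend) was fitted across all kept probe sets and all 10 arrays, with the set as a fixed block for irradiation effects (3 residual and 18.11 prior degrees of freedom) and a random block (correlation 0.277) for strain and genotype levels. p-values are two-sided, Benjamini-Hochberg adjusted over 8379 probe sets, with a threshold of 0.05.

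The series itself describes the sets as paired, and the 2 arrays of each set departed from their groups' means together (correlation 0.428 to 0.653). Within a genotype each set also had its own day and chip lot, so this correlation cannot tell pairing of collections from day. The 2 mutant sets share the value 0.428. The 6 genes and the lists were chosen with earlier results of these data known. Named are the 6 genes, and from each list the 2 largest WT changes and any gene that passed. Also named are 4 strongly induced genes and the 5 genes most like the 6. Lists gave 1 probe set a gene, the brightest. No sequences are printed.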

Additional observations from a re-analysis of the deposited data

Results flagged for a closer look

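The only result flagged was a difference between genotypes. mre11 was higher after irradiation in all 3 WT sets (1.71, 0.91 and 0.57 log2) and its mutant set changes were below 0 but small (-0.30 and -0.04 log2; fitted -0.17, 95% interval -0.84 to 0.50). The fitted difference, WT minus mutant, was 1.23 log2 (limma adjusted p = 1.00 over all probe sets), so that it did not pass. The flag rests on the sign of the set changes, above 0 in every WT set and below 0 in every mutant set. The share of all probe sets with this pattern was not counted. The smaller mutant change, -0.04 log2, was a signal of 276.2 against 267.7.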

How the results depend on the processing

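Over the 6 genes, 84 of 87 values of the WT irradiation effect kept their sign and call under 15 alternatives, as did 83 of 87 in the mutant and 83 of 87 for the difference. Under 13 or fewer alternatives, so did 64 of 75 unirradiated, 68 of 75 irradiated and 61 of 63 strain values. The causes of the moves below were not tested. A pseudocount at the 40th percentile gave 1 gene called in WT (rad50, adjusted p = 0.0489), with a median of 0.96, and an irradiated median of -0.94 log2. Testing only brighter probe sets, which keeps Ku80, mre11 and rad50, gave 2 called in WT and an irradiated median of -1.43. Quantile normalization gave medians of 0.17 (unirradiated), -1.04 (irradiated) and -0.40 (yw minus w1118), and turned nbs in the mutant (-0.054) and between strains (-0.36), and unirradiated Irbp (0.027), mre11 (0.033) and nbs (0.30). With w1118 and mutant arrays alone and day as a block, 3 genes were called when irradiated, the unirradiated median was -0.43, and DNAlig4 (-0.43) and nbs (0.13) turned.

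With sets left out in turn, the WT median ran from 0.88 to 1.08 and the irradiated one from -1.20 to -0.81, with 0 genes called. The unirradiated median ran from -0.43 to -0.027, and the strain median from -0.31 to -0.25. In the mutant Ku80 ran from -0.36 to 1.44, rad50 from -0.21 to 0.29 and nbs from -0.46 to 0.53. The difference ran from -0.35 to 1.46 for Ku80 and from 0.00 (-0.0045) to 0.99 for nbs. Unirradiated DNAlig4 ran from -0.43 to 0.85, mre11 from -0.43 to 0.10 and nbs from -0.17 to 0.13, and nbs between strains from -0.14 to 0.33. On the 3 sets without a high eIF-4a ratio, an alternative chosen after seeing the data, the difference was -0.36 for Ku80 and -0.069 for nbs. The mutant set kept there holds the array with the highest GAPDH ratio, 3.20.

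Counts over all probe sets moved more. In WT, 20 became 4 with no replicate block, 12 with a random block or quantile normalization, 11 on WT arrays alone, 8 with no filter, 3 without a variance trend, 38 among brighter probe sets, 2 on the 3 sets and 12 to 41 with a set left out. In the mutant it was 0 to 3, and for the difference 0 to 7. Strain and genotype counts without a set ran from 0 to 492 (unirradiated), 0 to 494 (irradiated) and 33 to 245 (strains). The day block gave 1207 unirradiated and 1048 irradiated. Irradiated, no filter gave 134. Between strains it was 423 with quantile normalization, 1390 with no filter, 121 among brighter probe sets and 754 with no replicate block. With 2 or 3 arrays a group, the number of arrays limits the precision of every value.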
